A study of Mus musculus with 12 samples.

Results

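The genes described here encode the plasma proteins of blood clotting and of complement, measured in mouse liver. The list holds 40 genes, 24 of coagulation and fibrinolysis and 16 of complement, chosen by symbol, with the brightest probe set standing for each gene. Of these, 37 had a probe set of their own in the annotation used, among 30142 genes in all. The probe set of Klkb1 is shared with another gene, and the other two have no probe set named here, so these 3 were not analysed here. All 37 had a mean over the 12 arrays above the filter on dim genes, and they were tested among 18725 genes.

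The RNA came from liver of male C57BL/6 mice aged 12 weeks, with 4 arrays in each of 3 groups. Controls had lean control parents. The other groups descended from obese females carrying Avy/a, a genotype with the viable yellow allele of agouti: the MatOb F2 group are their grandsons and the MatOb F3 group their great-grandsons, and in the text "F2 grandsons" and "F3 great-grandsons" mean these groups. The labels name the Avy/a genotype for the obese females, and they give neither the genotype of the measured males nor the line of descent, and do not say which generation the controls belong to. Nor do they say whether each array came from an animal of its own. The tests therefore rest on the spread among these arrays, part of which may be technical.

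Most plasma clotting factors and complement components are made by hepatocytes and secreted. Clotting runs through serine proteases that circulate as inactive precursors and activate each other in turn until thrombin cuts fibrinogen to fibrin. Protease inhibitors and protein C limit that cascade, and plasmin dissolves the fibrin. Complement is started by antibody or by lectins that bind microbial sugars, is amplified by the alternative pathway and ends in a pore built from the terminal components. Fibrinogen and several complement genes belong to the acute phase response, in which interleukin-6 acts on hepatocytes.

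Values are log2 expression of a probe set, and all differences are log2 differences from 1 limma fit over the 12 arrays. The levels of different probe sets are not comparable, so only differences within a gene are described. For the labelled tissue, Alb, the albumin gene that marks hepatocytes, stood between 13.22 and 13.39 on all 12 arrays, where the highest value in the table was 13.64. The median deviation of 9 hepatocyte markers from their means lay between −0.06 and 0.09 on every array, and that of 9 Kupffer cell markers was 0.45 on F2 replicate 2 and between −0.30 and 0.29 on the others. For 2 erythroid markers it was −0.52 on control replicate 2 and between −0.06 and 0.27 on the others. For 4 lymphocyte markers it was 0.36 on F2 replicate 2, −0.20 on control replicate 2 and between −0.15 and 0.22 on the others. Of 6 neutrophil markers, 3 lay under the filter, and S100a8 had a median of 2.91. Xist lay between 3.37 and 3.60 on all arrays and the Y-linked Uty between 6.19 and 6.84, as in males. The arrays fall into a set of 7 with more small nucleolar RNA (control replicates 2 and 4, F2 replicates 1 and 4, F3 replicates 1, 2 and 3) and a set of 5 with less, split at the widest gap in that level. No label names this split, and values with it as a block or within the set of 7 are given where they change a result.

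No coagulation or complement gene passed the test in either descendant group. In F2 grandsons 30 of the 37 genes had a mean above control, with a median difference of 0.08, and in F3 great-grandsons 33 of 37 did, with a median of 0.11. Over all genes tested the medians were −0.01 and −0.01, and 43.3% and 45.3% of genes lay above control. The 9 hepatocyte markers lay above control in 7 and 8 cases, with medians of 0.02 and 0.07, so a shift upward was not particular to the list. With limma and Benjamini-Hochberg adjustment over all genes, 0 of 37 were called in F2 grandsons and 0 in F3 great-grandsons, against 0% of all genes in each. An unadjusted p under 0.05 was reached by 1 of 37 genes in F2 grandsons, against 0.919% of all genes, and by 3 of 37 in F3 great-grandsons, against 2.93%. Single arrays moved these counts. In F3 great-grandsons it was 7 without control replicate 1, against 3.64% of all genes. It was 1 without control replicate 2, against 6.46%, and 1 without control replicate 3, against 2.41%. In F2 grandsons it was 3 without control replicate 1, against 1.77%, and 0 without control replicate 3, against 1.49%. Both comparisons share the 4 control arrays, so their shifts are not separate observations.

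These counts depended on single arrays. Without control replicate 2, 22 of 37 genes lay above control in F2 grandsons (median 0.01) and 20 of 37 in F3 great-grandsons (median 0.04), with 42.7% and 43.2% of all genes above. Without both control replicate 2 and F2 replicate 2, 12 of 37 lay above control in F2 grandsons, against 41.9% of all genes, with a median of −0.0365. Without control replicate 2 the direction turned for 10 of 37 genes in F2 grandsons and 13 of 37 in F3 great-grandsons. Without control replicate 1 the counts went the other way, to 36 of 37 (median 0.14) and 35 of 37 (median 0.15), against 45.6% and 46.2% of all genes. Array weights, which let limma give arrays unequal influence, left 21 of 37 above in F2 grandsons and 29 of 37 in F3 great-grandsons. The shares over all genes were then 40.3% and 46.5%. Quantile normalization left 29 of 37 and 22 of 37, against 48.6% and 39.3% of all genes. Centring on array medians gave 35 of 37 and 32 of 37, against 54.5% and 44.2%. The plot of differences with and without control replicate 2 shows the genes that moved most.

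**Figure D1:**
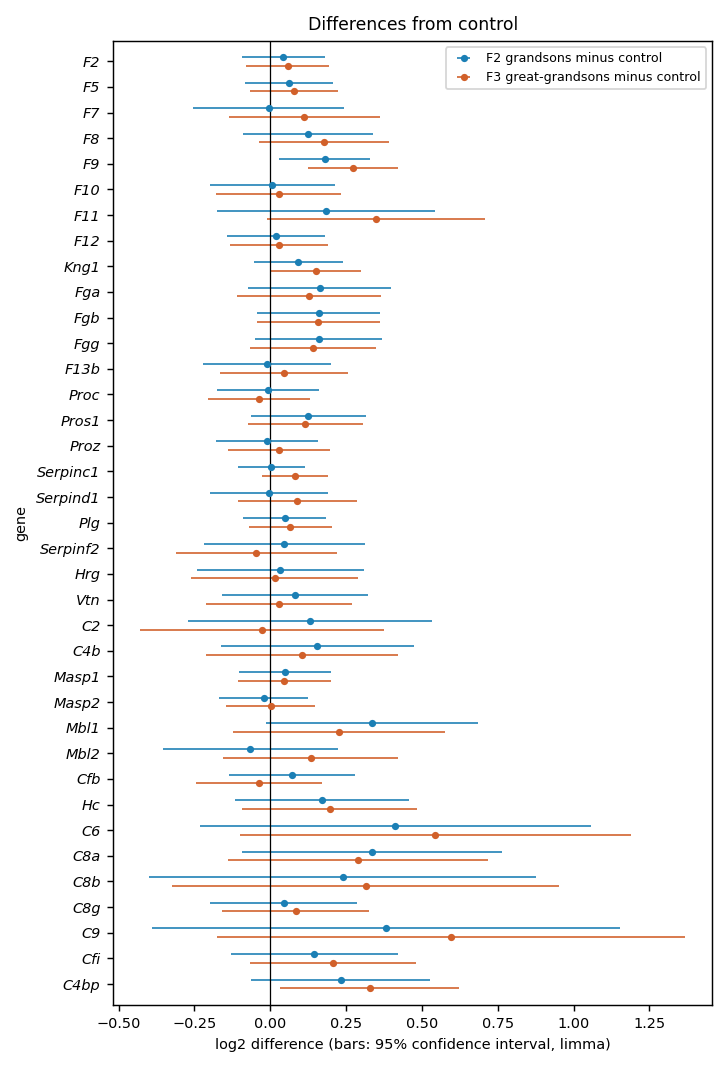
Log2 difference from control of each of the 37 genes (vertical axis) in F2 grandsons (blue) and F3 great-grandsons (orange), 4 arrays per group; points are limma estimates and bars their 95% confidence intervals. F9, at 0.18 and 0.27, is the gene whose intervals exclude 0 in both groups, and the intervals of C6, C8b and C9 are the widest.

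**Figure D2:**
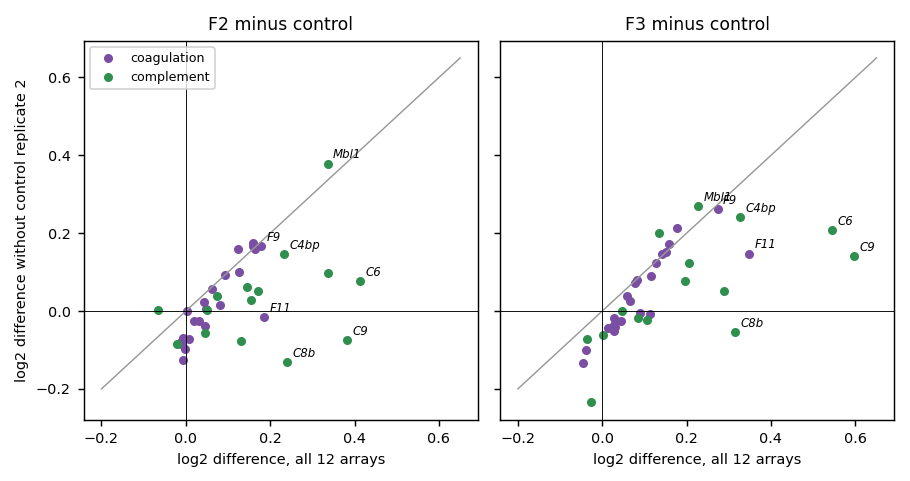
Log2 difference from control with all 12 arrays (horizontal axis) against the same difference without control replicate 2 (vertical axis), for F2 grandsons on the left and F3 great-grandsons on the right; each point is a gene and the grey line marks equal values. C9, C6, C8b and F11 fall far below the line, while F9 and Mbl1 lie close to it.

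The genes were followed over single arrays as well. F2 replicate 2 was the highest of the 12 arrays for 19 of 37 genes (51.4%), against 10.2% of all genes tested. Control replicate 2 was the lowest for 23 of 37 (62.2%), against 22.4% of all genes. The median deviation of the 37 genes from their 12-array means was −0.19 on control replicate 2 and 0.13 on F2 replicate 2. On the other 10 arrays it ran from −0.07 to 0.11. For complement genes alone the same medians were −0.44 and 0.32, and for coagulation genes −0.16 and 0.11.

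Both arrays also stood apart in genes outside the list. Saa1, an acute phase gene, was at 12.66 on F2 replicate 2, at 7.06 on control replicate 2, at 12.03 on control replicate 1, at 11.95 on F3 replicate 3 and at 11.65 on F3 replicate 4, and between 7.85 and 9.67 on the other 7. High and low Saa1 therefore occurred within every group. Over a list of 20 acute phase signalling and marker genes, the median deviation was 0.71 on F2 replicate 2, 0.35 on control replicate 1 and −0.39 on control replicate 2. Control replicate 2 also had Cyp2b9, a female-biased cytochrome P450 gene, at 8.50 against at most 4.49 elsewhere. Hsd3b5, a male-biased steroid enzyme gene, was at 8.18 there against at least 10.39. Cyp4a14, a fatty acid hydroxylase gene, was at 12.59 there, the highest of the 12. Of other sex-biased genes viewed, Cyp7b1 also stood apart there, at 9.08 against at least 10.33. Cyp2d9 and Elovl3 did not. Cyp2d9 was at 11.90 there and 11.85 on F2 replicate 2, and Elovl3 at 10.21 there and 10.34 on F3 replicate 3. The part of these arrays and genes in the results below was not tested.

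**Figure D3:**
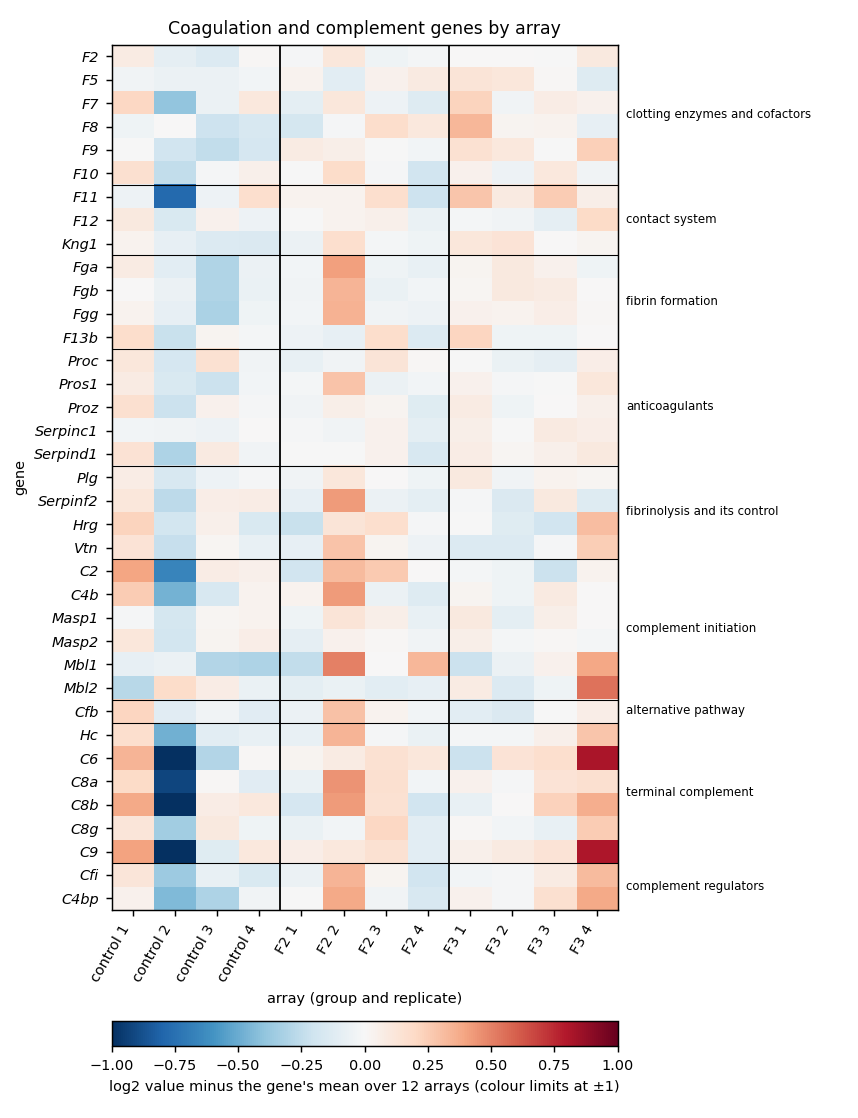
Log2 value of each gene on each array minus that gene's mean over the 12 arrays, as colour (blue lower, red higher, limits at ±1); rows are the 37 genes in their role groups, columns are the 12 arrays, and lines separate groups. The column of control replicate 2 is blue through most rows, most deeply for C6, C8a, C8b and C9, and that of F2 replicate 2 is red for fibrinogen and most complement genes.

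Among the clotting enzymes and cofactors, F9 showed the smallest p of all 37 genes. F9 encodes factor IX, the vitamin K-dependent protease missing in haemophilia B. It stood at 10.41, 10.23, 10.18 and 10.25 on the 4 control arrays, at 10.50, 10.47, 10.42 and 10.39 in F2 grandsons and at 10.57, 10.53, 10.41 and 10.65 in F3 great-grandsons. All descendant arrays lay above control replicates 2, 3 and 4, and control replicate 1 lay within the descendants' range, so the groups overlapped. The difference was 0.18 (SE 0.069, 95% interval 0.03 to 0.33) in F2 grandsons and 0.27 (interval 0.12 to 0.42) in F3 great-grandsons. The unadjusted p-values were 0.0224 and 0.00173 and the adjusted ones 0.9999 and 0.9998, so neither passed limma's test over all genes. Leaving out each array in turn gave F9 differences between 0.15 and 0.23 in F2 grandsons and between 0.24 and 0.32 in F3 great-grandsons. The unadjusted limma p of F9 in F2 grandsons was 0.056 without control replicate 3 and 0.0608 without F2 replicate 1. The 5 arrays with less small nucleolar RNA hold only 1 from F3 great-grandsons, replicate 4, so no p is given for that set. There F9 stood at 10.41 and 10.18 in controls, at 10.47 and 10.42 in F2 grandsons and at 10.65 on that F3 array. These are too few arrays to decide whether F9 differed within the set. With the small RNA set as a block the differences were 0.18 and 0.29, within the set of 7 arrays they were 0.21 and 0.26, and after quantile normalization 0.19 and 0.23.

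F8 encodes factor VIII, the cofactor of factor IX, and in liver it is made by sinusoidal endothelium. Its control arrays stood at 8.03, 8.08, 7.87 and 7.91, the F2 grandsons at 7.90, 8.06, 8.25 and 8.17 and the F3 great-grandsons at 8.40, 8.10, 8.11 and 7.99. The groups overlapped, and the differences were 0.12 (interval −0.09 to 0.34) and 0.18 (interval −0.04 to 0.39). Over 10 endothelial markers the median deviation ran from −0.09 to 0.12 in controls, from −0.08 to 0.07 in F2 grandsons and from −0.11 to 0.10 in F3 great-grandsons. In bulk tissue fewer cells of a type and less RNA per cell cannot be told apart. F8 and these markers correlated with r = 0.52 over 12 arrays (permutation p = 0.0826, adjusted p = 0.108).

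The remaining clotting enzymes and cofactors differed less from control. The prothrombin gene F2 had differences of 0.04 and 0.06, and F5, the gene of the cofactor that speeds thrombin formation, 0.06 and 0.08. F7, which starts clotting with tissue factor, had −0.01 and 0.11, and F10, the protease that makes thrombin, 0.01 and 0.03. Intervals of all 6 genes of this role lay within 1.5-fold of no difference in both comparisons.

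Of the contact system, which starts clotting on charged surfaces, 3 genes were measured. Kng1, the kininogen gene and source of bradykinin, stood at 11.04, 10.92, 10.87 and 10.86 in controls, at 10.95, 11.17, 10.98 and 10.96 in F2 grandsons and at 11.11, 11.14, 11.01 and 11.03 in F3 great-grandsons. In F3 great-grandsons all arrays were above 3 control arrays, while 2 were below control replicate 1. The differences were 0.09 (interval −0.05 to 0.24) and 0.15 (interval 0.0036 to 0.30, unadjusted p = 0.0455, adjusted p = 0.9998, limma). After quantile normalization the F3 difference of Kng1 was 0.04, and without F2 replicate 2 its F2 difference was 0.04. The unadjusted F3 p of Kng1 did not stay under 0.05 after quantile normalization, with centring on array medians or with replicate number as a block. With 1 array left out, it stayed under 0.05 only without control replicate 1, F2 replicate 2, F3 replicate 3 or F3 replicate 4.

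F11, the gene of factor XI, which activates factor IX, varied more between controls. They stood at 9.55, 8.81, 9.54 and 9.76, against 9.63, 9.63, 9.76 and 9.39 in F2 grandsons and 9.88, 9.68, 9.85 and 9.65 in F3 great-grandsons. Control replicate 2 lay below all other arrays, and the F3 difference of 0.35 (interval −0.01 to 0.71) was 0.15 without that array. In F2 grandsons F11 differed by 0.18, and by −0.02 without it. F12, the gene of the contact protease factor XII, had differences of 0.02 and 0.03.

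**Figure D4:**
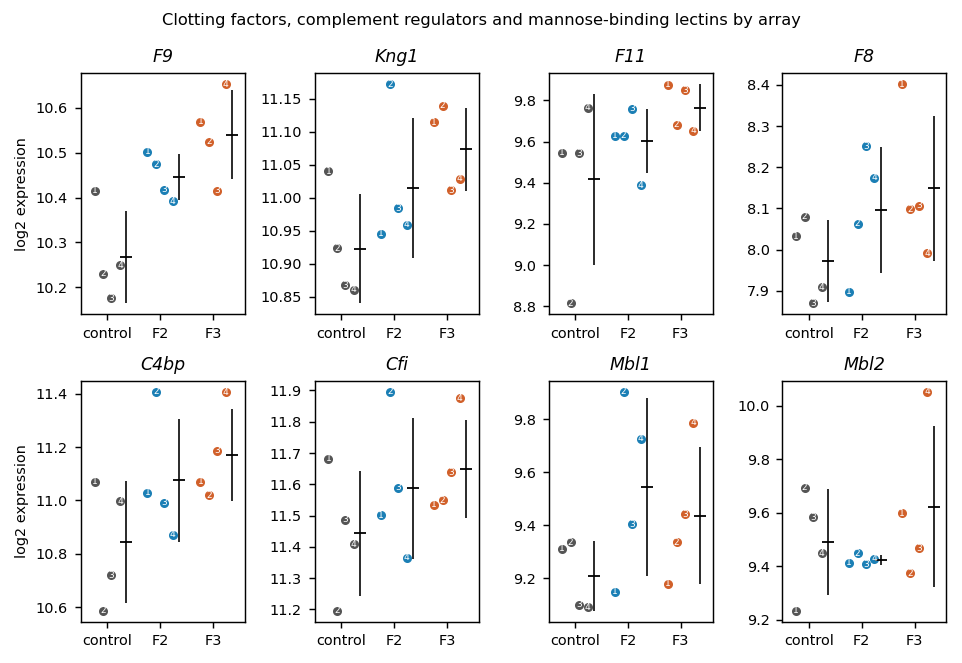
Log2 expression (vertical axes, each with its own range) of 8 genes on the 12 arrays by group; numbered points are replicates, and the black mark with its bar is the group mean and SD of 4 arrays. F9 lies above control replicates 2, 3 and 4 on every descendant array, and F3 replicate 4 is the highest array for F9 and Mbl2.

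The 3 fibrinogen genes varied together over the arrays, and none was called. Fga, Fgb and Fgg encode the chains that assemble into fibrinogen, and they lie side by side on chromosome 3. Their promoters are shown because the genes varied in parallel. Each line gives the 250 bases before the RefSeq transcription start in GRCm38.p6, 5′ to 3′ on the gene's strand, and capitals mark matches to letters bound by factors of the acute phase response, namely TTCNNNGAA of STAT proteins, CTGGGAA of the interleukin-6 response element and TTNNGNAA of C/EBP proteins, on either strand.
Fga, chr3:83025903-83026152, plus strand: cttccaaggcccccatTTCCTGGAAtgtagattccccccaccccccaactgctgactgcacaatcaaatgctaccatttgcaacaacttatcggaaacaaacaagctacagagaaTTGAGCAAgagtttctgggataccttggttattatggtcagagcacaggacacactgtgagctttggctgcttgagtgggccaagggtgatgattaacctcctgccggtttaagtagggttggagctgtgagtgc
Fgb, chr3:83049864-83050113, minus strand: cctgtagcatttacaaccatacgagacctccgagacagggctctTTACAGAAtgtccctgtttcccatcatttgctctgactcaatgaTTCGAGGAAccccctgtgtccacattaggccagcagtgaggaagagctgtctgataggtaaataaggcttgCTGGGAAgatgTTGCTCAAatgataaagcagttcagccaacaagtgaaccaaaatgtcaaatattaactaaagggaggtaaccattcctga
Fgg, chr3:83007474-83007723, plus strand: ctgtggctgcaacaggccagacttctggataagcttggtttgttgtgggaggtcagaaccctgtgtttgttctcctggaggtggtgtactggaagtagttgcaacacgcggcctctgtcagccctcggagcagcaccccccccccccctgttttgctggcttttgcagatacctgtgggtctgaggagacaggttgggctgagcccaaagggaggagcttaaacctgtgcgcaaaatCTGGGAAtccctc
The Fga window held TTCNNNGAA and TTNNGNAA, that of Fgb all 3 motifs and that of Fgg CTGGGAA alone. Among all 32851 promoter windows of this length in the table, 7.02% held TTCNNNGAA, 9.1% CTGGGAA and 36.8% TTNNGNAA. Of the 37 genes, 29 matched a RefSeq window by symbol, and 6, 4 and 12 of these held the motifs (20.7%, 13.8% and 41.4%). A gene counted if any of its windows held the motif, while the shares over all promoters are of windows. The percentages are therefore not of like units. A match describes letters only.

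Fgb stood at 12.54, 12.47, 12.23 and 12.47 in controls, at 12.50, 12.87, 12.47 and 12.50 in F2 grandsons and at 12.55, 12.63, 12.62 and 12.54 in F3 great-grandsons. All 4 F3 arrays lay above all 4 control arrays, the only gene of the 37 whose groups did not overlap in either comparison with control, against 1.63% of all genes in F3 in either direction and 0.726% with F3 higher. The lowest F3 array stood at 12.5370 and the highest control array at 12.5357, and the groups overlapped after quantile normalization or centring on array medians. The differences of Fgb were 0.16 (interval −0.04 to 0.36) and 0.16 (interval −0.05 to 0.36), with unadjusted p-values of 0.114 and 0.116.

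Fgg stood at 12.65, 12.53, 12.30 and 12.57 in controls, at 12.59, 12.96, 12.58 and 12.56 in F2 grandsons and at 12.65, 12.65, 12.68 and 12.63 in F3 great-grandsons. F2 replicate 2 was the highest and control replicate 3 the lowest of the 12 arrays for Fga, Fgb and Fgg alike. Without F2 replicate 2 the F2 difference was 0.05 for Fga, 0.06 for Fgb and 0.06 for Fgg, down from 0.16 for each. Over the 12 arrays Fga and Fgb correlated with r = 0.97 (permutation p = 3e-05, adjusted p = 0.00017) and rho = 0.85 (adjusted p = 0.00286). For Fga and Fgg r was 0.98 and rho 0.94, and for Fgb and Fgg r was 0.98 and rho 0.89, with permutation p = 1e-05 for each r, the smallest the permutations can give. Without F2 replicate 2 and control replicate 3, the arrays farthest from the median, r was 0.81, 0.88 and 0.86, and within the set of 7 arrays it was 0.93, 0.92 and 0.90. These are 3 of 17 relations computed, chosen after the values were seen and adjusted together. With the 20 acute phase genes Fgb had r = 0.64 (adjusted p = 0.0489) but rho = 0.36 (adjusted p = 0.298), and r = 0.33 without those 2 arrays. The complement gene C9 had r = 0.52 (permutation, adjusted p = 0.108) but rho = 0.73 (adjusted p = 0.0202) with the same 20 genes. Without control replicate 2 and F3 replicate 4 that r was 0.49. F13b, whose product carries the fibrin-crosslinking enzyme, had differences of −0.01 and 0.04.

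**Figure D5:**
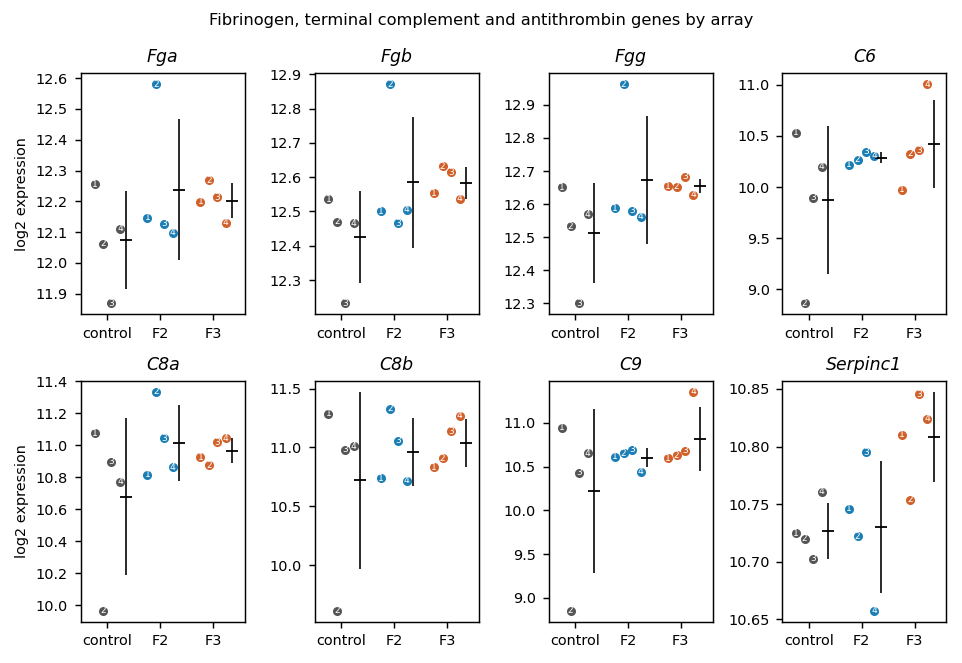
Log2 expression (vertical axes, each with its own range) of the 3 fibrinogen genes, 4 terminal complement genes and Serpinc1 on the 12 arrays by group; numbered points are replicates, and the black mark with its bar is the group mean and SD of 4 arrays. F2 replicate 2 is the top point for the fibrinogen genes, control replicate 2 is the bottom point for C6, C8a, C8b and C9, and Serpinc1 spans a far narrower range.

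The 5 anticoagulant genes had median differences of −0.0030 and 0.08, and none was called. Serpinc1 encodes antithrombin, the main inhibitor of thrombin, and stood at 10.72, 10.72, 10.70 and 10.76 in controls, at 10.75, 10.72, 10.80 and 10.66 in F2 grandsons and at 10.81, 10.75, 10.85 and 10.82 in F3 great-grandsons. Its SD within groups was 0.042, at the 0.833 percentile of the 18725 genes tested, and its differences were 0.0032 (interval −0.11 to 0.11) and 0.08 (interval −0.03 to 0.19). Pros1, the gene of protein S, the cofactor of protein C, stood at 7.84, 7.61, 7.55 and 7.74 in controls, at 7.74, 8.05, 7.70 and 7.74 in F2 grandsons and at 7.81, 7.75, 7.76 and 7.87 in F3 great-grandsons. F2 replicate 2 was again the highest array, and the F2 difference of 0.13 was 0.05 without it. Proc, the protein C gene, had differences of −0.01 and −0.04, Proz, whose product helps to inhibit factor X, of −0.01 and 0.03, and Serpind1, the gene of heparin cofactor II, of −0.0030 and 0.09.

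Genes of fibrinolysis and its control also gave no call. Plg, the plasminogen gene, stood at 12.39, 12.15, 12.26 and 12.30 in controls, at 12.28, 12.42, 12.31 and 12.27 in F2 grandsons and at 12.41, 12.28, 12.35 and 12.33 in F3 great-grandsons, with differences of 0.05 (interval −0.09 to 0.18) and 0.07 (interval −0.07 to 0.20). Serpinf2, the gene of the plasmin inhibitor, stood at 11.33, 10.96, 11.28 and 11.29 in controls, at 11.14, 11.64, 11.16 and 11.12 in F2 grandsons and at 11.20, 11.07, 11.32 and 11.09 in F3 great-grandsons. Control replicate 2 was the lowest and F2 replicate 2 the highest of the 12. The differences of Serpinf2 were 0.05 (interval −0.22 to 0.31) and −0.05 (interval −0.31 to 0.22). Hrg, whose product binds heparin and plasminogen, had 0.03 and 0.01, and Vtn, the vitronectin gene, 0.08 and 0.03.

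Complement initiation includes the mannose-binding lectins, which recognise microbial sugars. Mbl1 stood at 9.31, 9.34, 9.10 and 9.09 in controls, at 9.15, 9.90, 9.40 and 9.73 in F2 grandsons and at 9.18, 9.34, 9.44 and 9.79 in F3 great-grandsons. High arrays occurred in both descendant groups and the groups overlapped. The differences of Mbl1 were 0.34 (interval −0.01 to 0.69, unadjusted p = 0.0582) and 0.23 (interval −0.12 to 0.58), and without F2 replicate 2 the first was 0.22. Mbl2, the related lectin gene, stood at 9.23, 9.69, 9.58 and 9.45 in controls, at 9.41, 9.45, 9.41 and 9.43 in F2 grandsons and at 9.60, 9.37, 9.47 and 10.05 in F3 great-grandsons. F2 grandsons spanned the narrowest range of the 3 groups, and F3 replicate 4 was the highest array. Mbl2 differed by −0.07 (interval −0.35 to 0.22) and 0.13 (interval −0.16 to 0.42), and the 2 lectin genes had r = 0.28 over the arrays (permutation p = 0.391).

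Masp1 and Masp2, whose proteases work with the lectins, had differences of 0.05 and 0.05 and of −0.02 and 0.0013. C4b, a component cut by these proteases, had 0.16 and 0.11, and C2, its partner, 0.13 and −0.03. C2 has a second, dimmer probe set, and with the mean of both probe sets its F3 difference was 0.05, a turn of direction. Control replicate 2 was the lowest array for both C2, at 7.79, and C4b, at 10.66. Without it C4b had differences of 0.03 and −0.02 and C2 of −0.08 and −0.23, so the F3 direction turned for C4b and the F2 direction for C2. Cfb, the alternative pathway protease, stood at 11.33, 10.997, 11.08 and 10.998 in controls, at 11.06, 11.41, 11.15 and 11.08 in F2 grandsons and at 11.01, 10.97, 11.11 and 11.18 in F3 great-grandsons. Its differences were 0.07 (interval −0.13 to 0.28) and −0.04 (interval −0.24 to 0.17).

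The terminal complement genes carried the largest differences of the list, and none passed the test. All 6 had means above control in both descendant groups, with medians of 0.29 and 0.30. C6, C8a, C8b and C9 encode parts of the membrane pore. C8b and C9, like Fga, lie outside the rule for genes given on every array and were singled out after their values were seen. The promoters of these 4 genes are shown because they shared 1 low array, in the same format as for fibrinogen.
C6, chr15:4726960-4727209, plus strand: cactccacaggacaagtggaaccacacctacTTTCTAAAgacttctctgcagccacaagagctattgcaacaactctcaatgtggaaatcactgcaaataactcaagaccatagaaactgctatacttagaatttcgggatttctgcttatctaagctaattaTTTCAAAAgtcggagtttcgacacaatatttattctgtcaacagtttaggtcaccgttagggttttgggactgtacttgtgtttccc
C8a, chr4:104876399-104876648, minus strand: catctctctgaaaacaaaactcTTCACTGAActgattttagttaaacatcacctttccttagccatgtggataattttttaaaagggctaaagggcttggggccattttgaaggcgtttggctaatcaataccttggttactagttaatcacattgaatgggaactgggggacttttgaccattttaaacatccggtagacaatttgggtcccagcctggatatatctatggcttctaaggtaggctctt
C8b, chr4:104766067-104766316, plus strand: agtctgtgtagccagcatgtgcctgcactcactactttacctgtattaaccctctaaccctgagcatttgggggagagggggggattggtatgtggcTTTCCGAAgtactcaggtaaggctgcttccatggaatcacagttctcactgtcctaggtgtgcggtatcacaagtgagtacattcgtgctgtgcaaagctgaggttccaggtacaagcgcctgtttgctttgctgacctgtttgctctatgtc
C9, chr15:6445096-6445345, plus strand: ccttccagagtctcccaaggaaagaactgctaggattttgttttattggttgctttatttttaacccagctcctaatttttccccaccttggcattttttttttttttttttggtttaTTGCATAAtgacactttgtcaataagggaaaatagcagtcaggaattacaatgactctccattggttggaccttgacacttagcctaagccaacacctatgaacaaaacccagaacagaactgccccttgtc
The windows of C6, C8b and C9 held TTNNGNAA and that of C8a held TTCNNNGAA. C8a and C8b are neighbours on chromosome 4, while C6 and C9 lie on chromosome 15 with 8 protein-coding genes between them.

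C9, the pore-forming component, stood at 10.95, 8.85, 10.43 and 10.65 in controls, at 10.61, 10.65, 10.70 and 10.44 in F2 grandsons and at 10.60, 10.63, 10.68 and 11.36 in F3 great-grandsons. Control replicate 2 was 1.82 below the mean of the other 3 controls, and the other 11 arrays lay between 10.43 and 11.36. The differences of C9 were 0.38 (interval −0.39 to 1.15) and 0.60 (interval −0.17 to 1.37), and without control replicate 2 they were −0.07 and 0.14. C6 stood at 10.53, 8.86, 9.90 and 10.20 in controls, at 10.22, 10.27, 10.35 and 10.30 in F2 grandsons and at 9.97, 10.33, 10.36 and 11.01 in F3 great-grandsons. Control replicate 2 was again the lowest array and F3 replicate 4 the highest. The differences of C6, 0.41 (interval −0.23 to 1.06) and 0.54 (interval −0.10 to 1.19), were 0.08 and 0.21 without control replicate 2.

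C8a stood at 11.08, 9.97, 10.90 and 10.77 in controls, at 10.82, 11.34, 11.04 and 10.86 in F2 grandsons and at 10.93, 10.88, 11.02 and 11.04 in F3 great-grandsons. Without control replicate 2 its differences of 0.34 and 0.29 were 0.10 and 0.05. C8b stood at 11.28, 9.61, 10.98 and 11.01 in controls, at 10.74, 11.33, 11.06 and 10.72 in F2 grandsons and at 10.83, 10.91, 11.14 and 11.27 in F3 great-grandsons. Its differences of 0.24 and 0.32 were −0.13 and −0.05 without control replicate 2, so both directions turned. Hc, the gene of component 5, had 0.17 and 0.20, and C8g, the gene of the small C8 chain, 0.05 and 0.08. Without control replicate 2 Hc had 0.05 and 0.08, and C8g had −0.06 and −0.02, again a turn of direction.

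These genes also varied more within groups than most genes. The SD within groups was 0.58 for C9, 0.49 for C6, 0.48 for C8b and 0.32 for C8a, at the 98.5, 97.8, 97.8 and 94.6 percentiles of all genes tested. Without control replicate 2 it was 0.27, 0.31, 0.23 and 0.17, at the 92.6, 94.7, 90.2 and 78.9 percentiles. C6 and C9 correlated with r = 0.97 and rho = 0.87 over the arrays (permutation p = 8e-05 and 5e-04, adjusted p = 0.000272 and 0.00263), and r was 0.71 without control replicate 2 and F3 replicate 4. C8a and C8b correlated with r = 0.96 and rho = 0.86 (permutation p = 8e-05 and 0.00062), and r was 0.76 without control replicate 2 and F2 replicate 2. Within the set of 7 arrays r was 0.96 for C6 and C9 (exact permutation p = 0.0544) and 0.96 for C8a and C8b (exact permutation p = 0.0278). That set holds control replicate 2, the lowest array for 23 of 37 genes in all. Both pairs were picked after their values were seen. Their p-values therefore do not show that they correlate more than other genes of the list.

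Both complement regulators lay above control in each descendant group. C4bp, whose product blocks the classical pathway, stood at 11.07, 10.59, 10.72 and 10.996 in controls, at 11.03, 11.41, 10.99 and 10.87 in F2 grandsons and at 11.07, 11.02, 11.19 and 11.41 in F3 great-grandsons. The F3 arrays were above 3 of the 4 control arrays, and 2 of them lay at or under control replicate 1. The differences were 0.23 (interval −0.06 to 0.53) and 0.33 (interval 0.03 to 0.62, unadjusted p = 0.0321, adjusted p = 0.9998, limma), and without control replicate 2 they were 0.15 and 0.24. The unadjusted F3 p of C4bp did not stay under 0.05 after quantile normalization, with array weights or with replicate number as a block. Nor did it without control replicate 2, control replicate 3, F3 replicate 3 or F3 replicate 4. Without any other single array it stayed under 0.05. Cfi, the gene of the protease that inactivates complement fragments, stood at 11.68, 11.20, 11.49 and 11.41 in controls, at 11.50, 11.90, 11.59 and 11.36 in F2 grandsons and at 11.53, 11.55, 11.64 and 11.87 in F3 great-grandsons. Its differences were 0.14 (interval −0.13 to 0.42) and 0.21 (interval −0.07 to 0.48), and the F3 value was 0.07 after quantile normalization. Without control replicate 2 the differences of Cfi were 0.06 and 0.12, and without F2 replicate 2 the F2 difference was 0.04.

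With the small RNA set as a block, an unadjusted p under 0.05 was reached by 9 of 37 genes in F3 great-grandsons, against 3.73% of all genes. They were F9, F11, Kng1, Hc, C6, C8a, C9, Cfi and C4bp, all above control, and none passed after adjustment. Control replicate 2 was the lowest of the 12 arrays for F11, Hc, C6, C8a, C9, Cfi and C4bp. Within the set of 7 arrays, whose only controls are replicates 2 and 4, 6 of 37 genes reached that p, against 4.59% of all genes. With no block and without control replicate 2, the F3 count was 1 of 37 (F9), against 6.46% of all genes. Without control replicate 1 it was 7 of 37, against 3.64%. In F2 grandsons the block gave 3 of 37 (F9, Mbl1 and C8a), against 1.62%, and the set of 7 arrays gave 1 of 37 (F9), against 2.25%.

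F3 great-grandsons and F2 grandsons were also compared directly, since a difference from control in 1 group and not in the other does not show that they differ. The median difference of F3 minus F2 was 0.02, with 23 of 37 genes above 0, against 51.4% of all genes. The count was 11 of 37 after quantile normalization (39.5% of all genes) and 20 with centring on array medians (41.1%). It was 29 with the small RNA set as a block (56.2%), 30 with array weights (57.1%) and 31 within the set of 7 arrays (56.8%). Without F2 replicate 2 it was 33 (57.6%), with a median of 0.07. The share of all genes thus moved the same way. No gene passed limma's test (0 of 37, against 0% of all genes), and 0 of 37 reached an unadjusted p under 0.05, against 2.37%. The groups overlapped for all 37 genes, where 2.46% of all genes did not overlap. The extremes were C9 at 0.22 (interval −0.56 to 0.99) and C2 at −0.16 (interval −0.56 to 0.24). limma's moderated F test for any difference among the 3 groups called 0 of 37 genes, against 0% of all genes. By that test F9 alone had an unadjusted p under 0.05, against 1.7% of all genes.

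The 95% interval lay within 1.5-fold of no difference for 32 of 37 genes in F2 grandsons, against 95.2% of all genes, and for 31 of 37 in F3 great-grandsons, against 94.1%. Between F3 and F2 it was 34 of 37, against 94%. For coagulation genes the counts were 22 of 22 and 21 of 22, and for complement genes 10 of 15 and 10 of 15. For C9 the interval reached 1.37 in F3 great-grandsons, which is more than a 2-fold difference.

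Neighbouring genes of the list outside the fibrinogen cluster were compared as well. The pairs were picked after their values were seen, so their p-values do not show that neighbours correlate more than other genes of the list. F7, F10 and Proz lie side by side on chromosome 8. Control replicate 2 was the lowest array for each of them, as for 23 of 37 genes in all. F7 and Proz correlated with r = 0.89, F7 and F10 with r = 0.86 and F10 and Proz with r = 0.86, each with adjusted p at most 0.00132 by permutation, r was 0.76, 0.85 and 0.78 without the 2 farthest arrays, and within the set of 7 it was 0.97, 0.87 and 0.90. Hrg and Kng1, with 1 protein-coding gene between them on chromosome 16, correlated with r = 0.30 (permutation p = 0.343). C2 and Cfb, neighbours on chromosome 17, had r = 0.68 (adjusted p = 0.0278) over the 12 arrays and r = 0.05 within the set of 7.

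The other genes of these pathways were followed in a list of 91, of which 75 were tested. With limma 0 of the 75 passed in any comparison. Of 24 further complement genes 14 lay above control in F2 grandsons and 11 in F3 great-grandsons, with medians of 0.01 and −0.01. Of 15 further clotting and fibrinolysis genes 7 and 7 did, with medians of −0.0048 and −0.0050. The 6 genes of the vitamin K cycle and of factor V and VIII secretion had medians of −0.05 and −0.01. The 20 acute phase genes lay above control in 20 and 16 cases, with medians of 0.23 and 0.11. Without F2 replicate 2 the F2 count was 7 of 20, with a median of −0.04, and without control replicate 2 the counts were 13 and 12. The 24 further complement genes gave 9 above control in F2 grandsons without F2 replicate 2 and 8 without control replicate 2. The 15 further clotting genes gave 4 in F2 grandsons without F2 replicate 2, and 3 in F3 great-grandsons without control replicate 2. The 10 liver transcription factors lay above control in 9 and 4 cases, with medians of 0.04 and −0.04, and in F3 great-grandsons the count was 6 without control replicate 2.

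In F2 grandsons the lowest p-values in this list belonged to Rxra, a nuclear receptor gene (0.12, SE 0.066), the C-reactive protein gene Crp (0.25, SE 0.15), the quinone reductase gene Nqo1 (−0.35, SE 0.24) and the serum amyloid gene Saa4 (0.16, SE 0.12). In F3 great-grandsons they belonged to the ficolin gene Fcna (−0.21, SE 0.091, unadjusted p = 0.0432), the annexin gene Anxa2 (−0.17, SE 0.089), Rxra (−0.12, SE 0.066) and Vkorc1l1, a vitamin K reductase gene (0.14, SE 0.082). Between F3 great-grandsons and F2 grandsons they belonged to Rxra (−0.25, unadjusted p = 0.0026), Cebpb, a factor of the acute phase response (−0.25), Foxa3 (−0.21) and the interleukin-6 receptor gene Il6ra (−0.35). None of these passed after adjustment over all genes (limma, adjusted p at least 0.9998).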

How the data were processed

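The values are the log2 expression values deposited by the authors in the series' value table, made from 12 Affymetrix whole-transcript arrays. Per the submitters' processing notes, the software was Affymetrix Expression Console. How it corrected background and normalized, and its version, is not given in the sources used here. Array medians ran from 4.49 to 4.60.

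Of 72688 probe sets, the platform annotation gave 30604 with 1 gene symbol, 2146 with several and 39938 with none here. Symbols were updated through Entrez numbers to RefSeq GRCm38.p6 (22818 matched, 827 changed). The brightest probe set stood for each gene. Genes with a mean over all arrays above 4.546, the median of all probe sets, were tested (18725).

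limma 3.58.1 in R 4.3.3 was fitted to all 12 arrays with 3 group means and 9 residual degrees of freedom. P-values were adjusted by Benjamini-Hochberg over all genes tested. Precision is limited by the number of arrays. The test was checked on simulated data. Correlations used 100000 permutations.

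Members and lists were chosen with earlier results of these data known. Genes given on every array were those whose groups did not overlap, the 2 with the lowest moderated F p in each role, F8, Mbl1 and Mbl2. Of the related lists up to 4 genes per comparison were named. The correlated pairs and the sex-biased genes were picked after their values were seen.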

Additional observations from a re-analysis of the deposited data

Results flagged for a closer look

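Within a group of 4 arrays, 10 of 111 checks of a gene found 1 array set apart by Dixon's criterion. For independent checks chance gives about 1 in 20. These checks share the same 12 arrays and include genes that vary together, so that rate is no measure for them. The share over all genes was not computed. Of the 10, 7 concerned F2 replicate 2, which lay above the other F2 grandsons. Its values were 11.17 for Kng1 (nearest array 10.98), 12.58 for Fga (12.15), 12.87 for Fgb (12.50), 12.96 for Fgg (12.59), 8.05 for Pros1 (7.74), 11.64 for Serpinf2 (11.16) and 11.704 for Hc (11.35). F3 replicate 4 lay above the other F3 great-grandsons for the prothrombin gene F2, at 11.38 against 11.28, and for C9, at 11.36 against 10.68. Control replicate 2 lay below the other controls for Serpinf2, at 10.96 against 11.28.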

How the results depend on the processing

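No gene of the 37 passed the adjusted threshold in any comparison under any setting run. At an unadjusted p under 0.05 the counts were 1 in F2 grandsons, 3 in F3 great-grandsons and 1 by the moderated F test. With 1 array left out they ran from 0 to 3 in F2 grandsons and from 1 to 7 in F3 great-grandsons. The shares over all genes then ran from 0.753% to 3.06% and from 2.14% to 6.46%. Leaving out each array in turn gave median differences from 0.0059 to 0.1401 in F2 grandsons, from 0.04 to 0.15 in F3 great-grandsons and from −0.0049 to 0.07 between F3 and F2. Without both control replicate 2 and F2 replicate 2 the median difference in F2 grandsons was −0.0365. There 12 of 37 genes lay above control, against 41.9% of all genes. The median of the 20 acute phase genes, an alternative chosen after seeing the data, was −0.11 in that setting. The number of genes whose F3 and control arrays did not overlap was 0 after quantile normalization and 0 with arrays centred on their medians, against 1. Of the 51 differences of the 17 genes chosen by the rule, 24 turned direction under some setting. Labels number replicates alike in each group, but arrays with the same number did not deviate together (median r −0.23 over 12 pairs, against 0.16 over 36 pairs of different number). With the replicate block the medians were 0.08 and 0.11 and 0 genes passed. The causes of these changes were not tested.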
